A study of Mus musculus with 6 samples.

Results

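Rod photoreceptors were studied here in mouse retinas after oxygen-induced retinopathy (OIR) and in control retinas (Ctrl), by droplet single-cell RNA-seq. Rods were chosen by their measured marker counts, as barcodes with at least 2 unique molecular identifiers (UMIs, each marking 1 captured transcript) summed over Nrl, Nr2e3, Cnga1 and Pde6a, and with none of the cone gene Arr3, the bipolar gene Trpm1, the glial genes Slc1a3 and Rlbp1 and the endothelial gene Pecam1. By this rule 23924 of the 38569 kept barcodes were rods, 62.0% of them. Kept barcodes had 500 to 5000 detected genes and at most 20% mitochondrially encoded UMIs, and 47631 barcodes were deposited.

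The OIR group held 3 samples from pups that breathed 75% oxygen between P7 and P12 and room air for the next 5 days. The Ctrl group held 3 samples from pups of the same age raised in room air throughout. All retinas were taken at P17 and dissociated whole, with 2 mice pooled in each sample. The strain is not given in the sources used here. The labels name the source as endothelial cells, yet rods were 34.5% to 82.7% of the kept barcodes of a library. Since each library is a pool, p-values measure the spread between these pools and not between animals.

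Rods detect dim light. In the outer segment light leads to activation of the G protein transducin, transducin activates the phosphodiesterase, and the fall in cyclic GMP closes cation channels, after which recoverin, the kinase GRK1, arrestin, the RGS9 complex and guanylate cyclase with its activating proteins restore the dark state. In the mouse the outer segments are still lengthening in the weeks after birth, and rods are known for a high demand for oxygen and for aerobic glycolysis. In the OIR model the inner retina, where the bipolar cells lie, loses capillaries in high oxygen and becomes hypoxic on return to room air, while rods are supplied mainly by the choroid.

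The label fitted the data. Gnat1, the rod transducin alpha subunit, which the rule did not use, was found in 93.7%, 88.2% and 86.2% of OIR rods and 93.6%, 97.4% and 93.9% of Ctrl rods. It also gave UMIs in other cells. Gnat1 was found in 68.2%, 51.3% and 49.4% of OIR rod bipolar barcodes and in 74.3%, 48.1% and 49.0% of Ctrl ones, so a Gnat1 UMI alone does not mark a rod in these libraries, and levels were compared instead. Gnat1 was 1758 to 3807 of every 1000000 UMIs in the rods of a library and 454 to 1072 in its other kept barcodes. At the edge of the rule, 549 barcodes had 1 UMI of the rod genes and stayed out, 513 had exactly 2 and entered, and 9671 had at least 2 but carried a UMI of an excluding gene.

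The libraries differed in depth and in how many rods they held. The OIR libraries held 37872383, 24615436 and 25061712 UMIs, in the order of replicates 1, 2 and 3, and the Ctrl libraries 42606878, 19702233 and 15788524. Rods numbered 2539, 3767 and 5287 in OIR and 2468, 4054 and 5809 in Ctrl. They were 41.9%, 68.5% and 70.8% of kept barcodes in OIR, against 34.5%, 75.5% and 82.7% in Ctrl. The replicate 1 libraries were lowest in both groups, and the groups overlapped. Mean shares were 60.4% ± 16.0 (SD, n = 3) and 64.2% ± 25.98 (SD, n = 3). A two-sided exact permutation test gave p = 0.8, where 3 against 3 cannot go below 0.1, so it could call no difference. The sign of that difference turned when OIR replicate 1, Ctrl replicate 2 or Ctrl replicate 3 was left out (5.38, 1.77 and 5.38 percentage points higher in OIR, against 3.85 lower with all). Median UMIs per rod were 3164, 2174 and 1903 in OIR and 2556, 1816 and 1403 in Ctrl (p = 0.4, same exact permutation test). No 2 libraries shared more than 13 rod barcodes, 0.246% of the smaller library.

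**Figure D1:**
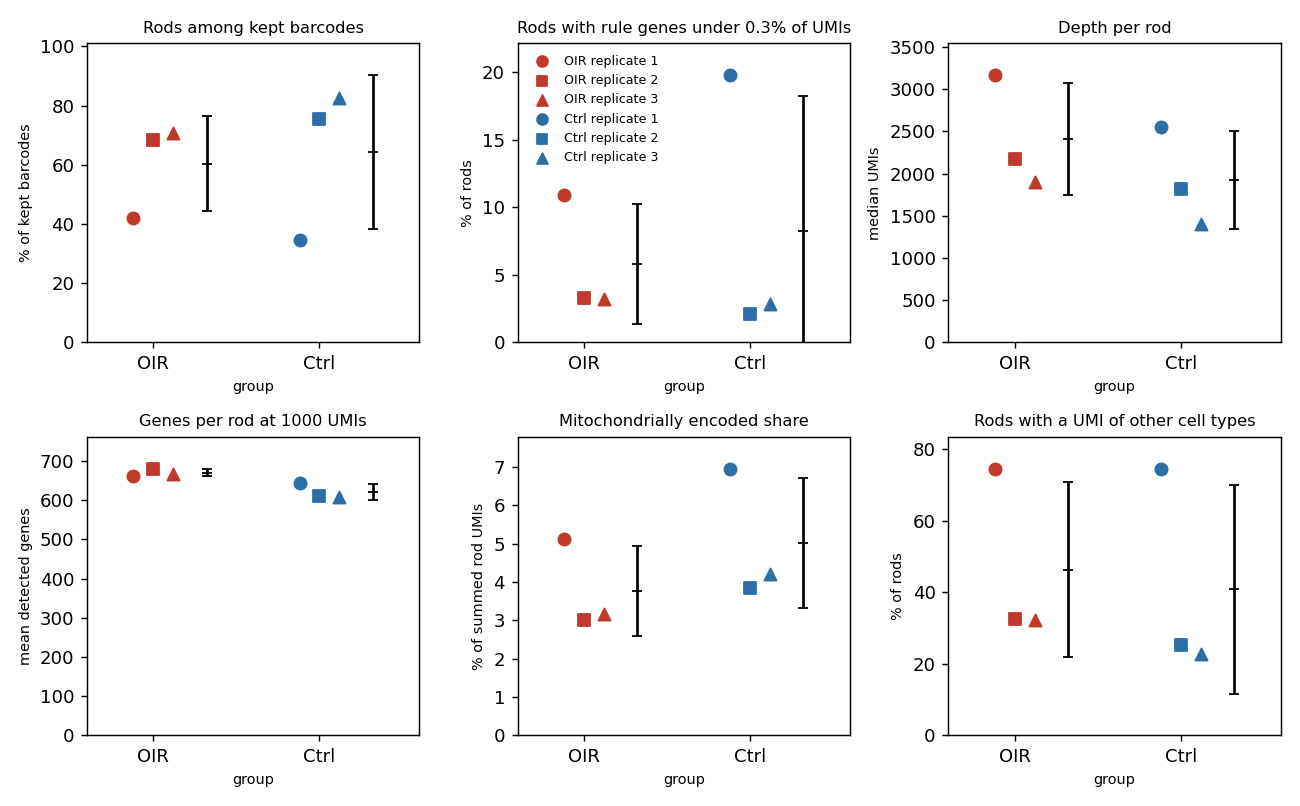
Per-library values of rods in 6 panels, with OIR in red, Ctrl in blue, 1 symbol per replicate, and the group mean with its SD in black. Replicate 1 of each group stood apart in rod share, in depth, in the share of rods whose rod genes were under 0.3% of their UMIs, where it reached 10.9% in OIR and 19.8% in Ctrl, and in the share of rods with a UMI of a wider set of other-cell genes, at 74.4% and 74.5% against 22.6% to 32.4% elsewhere.

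The replicate 1 libraries also held rods that looked least like rods. Barcodes that met the rule with under 0.3% of their UMIs in the 4 rod genes were 277, 122 and 168 in OIR, or 10.9%, 3.24% and 3.18% of rods, and 488, 84 and 164 in Ctrl, or 19.8%, 2.07% and 2.82%. In replicate 1 these barcodes had a median of 2647 (OIR) and 2516.5 (Ctrl) detected genes. Markers of other cells moved with them. Pde6h, of cones, was found in 46.2% of rods in OIR replicate 1 and 30.4% in Ctrl replicate 1, against 2.32% to 6.24% in the other 4 libraries, and Apoe, of glia, in 36.8% and 35.8%, against 5.11% to 12.5%. A second, relative rule, chosen after these values were seen, therefore also asked for at least 0.3% of a barcode's UMIs in the 4 rod genes. It kept 22621 rods, 2262, 3645 and 5119 in OIR and 1980, 3970 and 5645 in Ctrl.

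The central question was which genes of rods differed between OIR and Ctrl, tested on UMIs summed over the rods of each library. With the rule as given, edgeR's quasi-likelihood test with Benjamini-Hochberg adjustment called no gene higher and no gene lower in OIR among 12400 tested (0% each way, a call being a log2 fold change of 0.25 or more in size whose adjusted p was under 0.05), although 862 had an unadjusted p under 0.05. DESeq2 called 69 higher and 68 lower (0.548% and 0.54%), edgeR with the replicate number as a block 9 and 2 (0.0683% and 0.0152%), and edgeR on replicates 2 and 3 alone 1096 and 1146 (8.95% and 9.36%), a fit in which the OIR pools were male and the Ctrl pools female, so that group and sex cannot be told apart. With the relative rule edgeR called 93 genes higher and 68 lower among 11559 (0.805% and 0.588%), and DESeq2 239 and 264 (2.05% and 2.27%). Samples with the same replicate number deviated together, although replicates 2 and 3 also did so across numbers, and that block raised the edgeR counts of the relative rule to 482 and 458 (4.01% and 3.81%). In pairs 2 and 3 of the block the OIR pools were male and the Ctrl pools female, so calls with the block carry sex as well as group. Of the 161 genes called with the relative rule, 159 of the 160 tested had the same direction with the rule as given, and all 161 were called again with the block and with DESeq2. These fits use the same libraries and mostly the same rods, so their agreement is no independent support. With a term for sex all 161 kept their direction and 23 were called again.

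Limits of those calls were the libraries and the sex of the mice. Without OIR replicate 2 the relative rule gave 3 genes higher and 0 lower, and without OIR replicate 3, Ctrl replicate 2 or Ctrl replicate 3 it gave 9 and 7, 7 and 5, or 10 and 9, so that 3, 16, 12 and 19 of the 161 were called again, while without Ctrl replicate 1, the sole male Ctrl pool, it gave 464 and 445, and group and sex cannot be told apart in that fit. Xist marked Ctrl replicates 2 and 3 as female (1555 and 1848 UMIs in every 1000000 rod UMIs, written CPM, against at most 0.802) and the Y-linked genes marked the other 4 as male (218 to 287 CPM), and with a term for sex 11 genes were higher and 24 lower (0.0868% and 0.189%). With that term the log2 fold changes of the 12 higher genes named below ran from 0.67 to 3.25, against 0.79 to 3.43 without it. Those of the 12 lower ran from -2.09 to -0.67, against -2.03 to -0.84. For the further 5 higher they were 0.93 to 2.07 against 1.23 to 2.37, and for the further 2 lower -0.65 to -0.51 against -1.28 to -0.75. The values below are with the relative rule unless another is named, levels are CPM in replicates 1, 2 and 3, fold changes are log2 of OIR over Ctrl after scaling by edgeR's trimmed means, and adjusted p-values are edgeR's. For genes named only from the gene lists, no fit with the sex term is given. Their calls with the block carry sex as well as group. The expression of 3002 of 11559 genes (26%) did not overlap between the groups.

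The genes higher in OIR rods were of several families. Calml4, a calmodulin-like gene (chromosome 9, 62858080 to 62875921 in GRCm38), was at 28.6, 67.3 and 48.9 CPM in OIR and at 4.62, 3.52 and 4.04 CPM in Ctrl. Every OIR library was above every Ctrl library, which the naming rule required. The Calml4 log2 fold change of 3.43 ± 0.31 (SE, adjusted p = 0.0055) was the largest of the 12 named by lowest p. Gnb2, a G protein beta subunit (chromosome 5, 137528127 to 137533510), was at 238, 306 and 321 CPM in OIR and 84.4, 49.1 and 54.6 CPM in Ctrl, a log2 fold change of 2.06 ± 0.20 (adjusted p = 0.00567). Actl6b, a neuronal subunit of the BAF chromatin complex, lies next to it on chromosome 5 (137553517 to 137569582) and was at 36.9, 48.3 and 51.4 CPM against 17, 16.3 and 14.7 CPM. The pair rose together, by 2.06 and 1.36 on the log2 scale.

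Dcdc2a, a doublecortin-domain gene of cilia, was at 48.4, 64.5 and 54.4 CPM in OIR and 15.3, 14 and 15.1 CPM in Ctrl, with little spread among the Ctrl libraries (log2 1.76 ± 0.13). Col5a3, a collagen chain, was at 33.9, 37.2 and 40 CPM against 12.6, 12.7 and 12.8 CPM. Rilp, which links late endosomes and lysosomes to dynein, was at 19.6, 41 and 31.6 CPM against 7.35, 4.22 and 5.27 CPM. These 3 genes are of different families, and in each the groups were apart in all 6 libraries, which the naming rule required. Dusp26, a phosphatase gene, was at 97.6, 116 and 105 CPM against 48.5, 29.2 and 27.9 CPM (log2 1.46 ± 0.20, adjusted p = 0.0181). The other named genes were Riiad1, Asl of the urea cycle, Racgap1 of cytokinesis, Podxl2 and the synaptic vesicle gene Sv2a, with log2 fold changes from 0.79 (Sv2a) to 1.94 (Riiad1). The 12 had adjusted p-values from 0.0055 to 0.0181, and all 12 were called with the block and 7 with the sex term. With the rule as given their adjusted p-values were 0.156 to 0.938, and Sv2a turned to a log2 fold change of -0.38 when the sex term was added to that fit.

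A further 5 genes rose in rods but gave under 0.5 times the CPM there that they gave in the other kept barcodes. Igsf21, a synaptic adhesion molecule, was at 35.9, 59.2 and 46.7 CPM in OIR rods and at 10.3, 8.21 and 6.5 CPM in Ctrl rods (log2 2.37 ± 0.21, adjusted p = 0.0055). Tmsb10, an actin-binding thymosin, was at 471, 555 and 947 CPM against 190.4, 162 and 219.8 CPM. In rod bipolar barcodes Tmsb10 was at 2846, 2458 and 4367 CPM in OIR and 1828, 4949.9 and 5637 CPM in Ctrl, and there the groups overlapped. Tmem176b, Tshz2 and Prdx4, a peroxiredoxin of the endoplasmic reticulum, rose by 1.28, 1.56 and 1.23 on the log2 scale. All 5 were called with the block and 1, Igsf21, with the sex term, and with the rule as given the adjusted p-values were 0.348 to 0.796. RNA from other cells can add to such genes, and its part in these values was not tested.

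Among the genes lower in OIR rods, Pdzph1 came first. It was at 74.2, 52.9 and 51.9 CPM in OIR and 229.6, 227 and 201 CPM in Ctrl (chromosome 17, 58878808 to 58991375). All OIR libraries were below all Ctrl libraries, which the naming rule required, and Pdzph1 fell by 2.03 ± 0.18 on the log2 scale (adjusted p = 0.0055). Faim, an inhibitor of Fas-driven apoptosis, was at 98.7, 65.8 and 70.3 CPM in OIR and 290.1, 249 and 255 CPM in Ctrl (log2 -1.91 ± 0.18, adjusted p = 0.00567). Tnfaip3, which encodes the ubiquitin-editing enzyme A20 that restrains NF-kappaB, was at 53.6, 45.4 and 40.2 CPM against 103, 107 and 96.4 CPM (log2 -1.29 ± 0.14). Faim and Tnfaip3 are known as brakes on cell death or inflammatory signalling. Both were lower in every OIR library, which the naming rule required. Genes were named by p and not by function, and whether genes with this role were lower as a set was not tested.

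Trpc1, a cation channel subunit, was at 46.4, 49.6 and 37.2 CPM in OIR rods and 129.7, 96.8 and 105 CPM in Ctrl rods (log2 -1.47 ± 0.16). Mef2c, a MADS-box transcription factor, was at 35.7, 32.9 and 42 CPM against 113, 101 and 71.7 CPM (log2 -1.52 ± 0.18, adjusted p = 0.00925). Stk35, a serine/threonine kinase, was at 59.7, 43 and 33.4 CPM against 177, 182 and 142 CPM, with a fall of 2.03 ± 0.23 on the log2 scale. Of the remaining named genes, Sh2d1a encodes the adaptor SAP, Stard7 a carrier of phosphatidylcholine to mitochondria, Ipo8 an importin and Hdac9 a class II histone deacetylase, and D16Ertd472e and Tmem136 completed the 12. Their log2 fold changes ran from -1.91 (Sh2d1a) to -0.84 (Ipo8), all 12 were called with the block and 9 with the sex term, and with the rule as given the adjusted p-values were 0.156 to 0.565. Under the 0.5-fold limit there were 2 more, the cytolinker Dst (log2 -1.28) and Hadh of fatty acid oxidation (log2 -0.75), of which 0 were called with the sex term and whose adjusted p-values were 0.287 and 0.596 with the rule as given. Of the genes called lower, 56 of 68 (82.4%) had a higher CPM in rods than in the other kept barcodes, as did 40 of the 93 called higher (43.0%) and 5736 of the 11559 tested (49.6%), and these shares were not tested against each other.

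**Figure D2:**
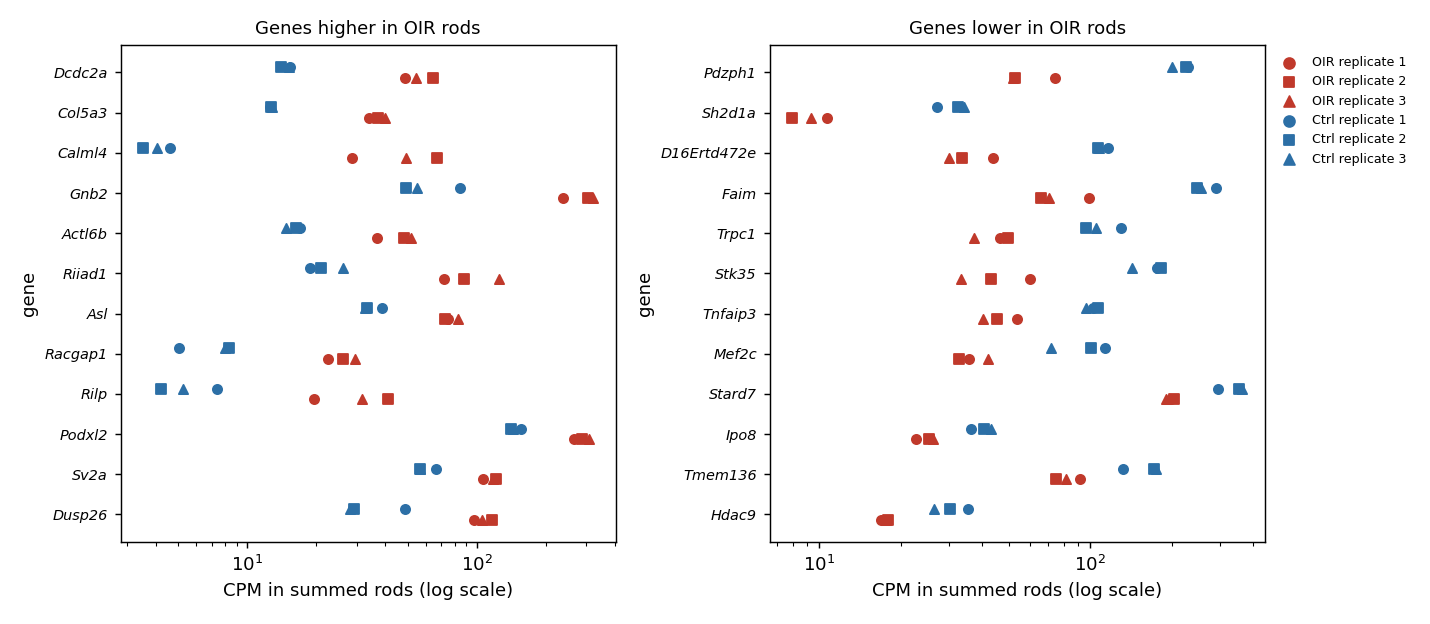
CPM on a log axis of the 12 genes higher (left) and the 12 lower (right) in OIR rods with the lowest p, with OIR in red, Ctrl in blue and 1 symbol per replicate. The 2 groups are apart in each of the 24 genes, which the naming rule required, and the widest gap is that of Calml4, at 28.6 to 67.3 CPM in OIR against 3.52 to 4.62 CPM in Ctrl.

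Genes of the phototransduction cascade mostly had negative log2 fold changes in OIR rods. Of 20 genes tested, 19 had a negative log2 fold change, with a median of -0.40 against 0.00 over all genes. By edgeR 0 were called higher and 1 lower, where 0.805% and 0.588% of all genes were. With the block 7 were lower and 0 higher (3.81% and 4.01% of all genes), and DESeq2 called 6 lower and 0 higher (2.27% and 2.05% of all genes). Rule genes Cnga1 and Pde6a are among the 20 and, having chosen the cells, support nothing. Together the list, with these 2 genes in it, was 69974, 63514 and 62140 CPM in OIR and 75517, 78566 and 73443 CPM in Ctrl, which did not overlap. The tally, the median and this sum were not taken without the 2 rule genes. The relative rule also chose barcodes by their share of rod-gene UMIs, so the gap between the sums supports nothing by itself. With the rule as given it was 57643, 60734 and 59686 CPM against 50812, 76537 and 71286 CPM, with Ctrl replicate 1 below every OIR library, and there 17 of 20 genes were negative and 0 were called.

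In the activating steps, Gnat1 was at 2654, 1859.6 and 1829.8 CPM against 3478, 3909 and 2865 CPM, every OIR library below every Ctrl library (log2 -0.84 ± 0.21, adjusted p = 0.0991, and 0.0132 with the block). Gngt1, the transducin gamma subunit, was at 10147, 7561 and 9023 CPM against 11008, 13719 and 12909 CPM (adjusted p = 0.0564 with the block). Pde6b, a catalytic subunit of the phosphodiesterase, was at 1237, 1354 and 1322 CPM against 1515, 1616 and 1589 CPM (adjusted p = 0.0399 with the block). So edgeR called transducin alpha and the phosphodiesterase beta subunit lower where replicates were paired and did not call them where they were not. Calls with the block carry sex as well as group, and no fit with the sex term is given for these genes.

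The recovery and calcium feedback genes held the largest differences of the cascade. Rgs9bp, the membrane anchor of the RGS9 complex that ends transducin signalling, was at 173, 168 and 145 CPM in OIR and 246, 294 and 254 CPM in Ctrl. It was the single gene of the list that edgeR called without the block (log2 -0.86 ± 0.13, adjusted p = 0.0256). Rgs9 itself was at 493, 674 and 486 CPM against 572, 500.4 and 388 CPM (log2 0.03 ± 0.18). The anchor was lower in all OIR libraries, while the groups overlapped for Rgs9. Guca1a and Guca1b encode the guanylate cyclase-activating proteins. Guca1a was at 775, 590.0 and 258 CPM against 2045, 912 and 841 CPM, and Guca1b at 1392, 791 and 639.6 CPM against 2448, 1631 and 1379.5 CPM. Without the block edgeR called neither (adjusted p = 0.188 and 0.149), and with it both (log2 -1.40 ± 0.18 and -1.15 ± 0.12, adjusted p = 0.0028 and 0.00105). Grk1, a receptor kinase of the recovery phase, was at 316, 322 and 273 CPM against 448, 485 and 382 CPM, and Slc24a1, the outer segment Na/Ca-K exchanger, at 1128, 1159.8 and 1013 CPM against 1468, 1602 and 1247 CPM. The block called both (adjusted p = 0.00415 and 0.0179), and the fit without it gave 0.0526 and 0.109. Arrestin (Sag), phosducin (Pdc), recoverin (Rcvrn), Gnb5, Cngb1 and the 2 guanylate cyclases were called in neither edgeR fit.

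**Figure D3:**
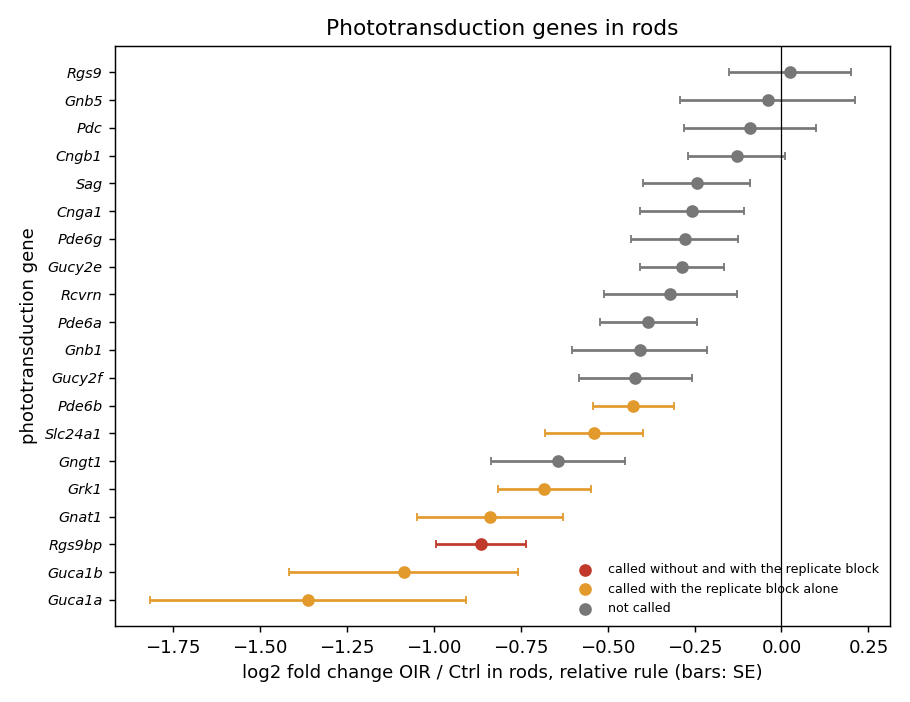
Log2 fold change of OIR over Ctrl, with its SE, for the 20 phototransduction genes in rods by the relative rule, ordered by value. All but Rgs9 lie left of 0. By edgeR, Rgs9bp (red) was called without and with the replicate block, and the 6 genes in orange from Guca1a to Pde6b with the block alone.

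Many photoreceptor genes carry the sequence TAATCC, the core bound by the homeodomain factor CRX, close to their start. The promoters of Guca1a and Samd7 are printed to show it beside a gene that was lower and one that was higher in OIR rods, as the 250 bases before the RefSeq start in GRCm38.p6, with TAATCC or its complement GGATTA in capitals. Guca1a is on the minus strand (chr17:47400607-47400856) with the match beginning 57 bases before the start, and Samd7, a repressor of non-rod genes in rods, is on the plus strand (chr3:30746043-30746292) with the match 139 bases before.
Guca1a: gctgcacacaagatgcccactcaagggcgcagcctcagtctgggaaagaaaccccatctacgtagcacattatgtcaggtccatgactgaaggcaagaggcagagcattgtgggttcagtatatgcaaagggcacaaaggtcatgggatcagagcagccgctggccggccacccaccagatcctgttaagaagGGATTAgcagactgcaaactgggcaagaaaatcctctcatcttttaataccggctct
Samd7: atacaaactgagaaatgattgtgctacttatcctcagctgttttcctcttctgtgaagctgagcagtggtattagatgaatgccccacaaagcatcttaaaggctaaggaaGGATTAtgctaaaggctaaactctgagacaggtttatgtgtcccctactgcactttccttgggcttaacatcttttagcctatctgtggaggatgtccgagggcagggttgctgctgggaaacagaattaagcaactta
The motif, read on both strands, was in 8 of the 14 phototransduction promoters in the table (57.1%), against 1725 of 27025 promoters of that length in all (6.38%). Among genes called in rods it was in 1 of 49 promoters of lower genes (2.04%) and 6 of 69 of higher genes (8.70%), and with the block in 22 of 348 (6.32%) and 20 of 359 (5.57%), against 5.36% of all genes tested in either fit.

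Transcription factors of rods had log2 fold changes of both signs. Of 18, 10 had a positive and 8 a negative log2 fold change, and edgeR with the relative rule called 0 higher and 1, Mef2c, lower (0.805% and 0.588% of all genes), with 2 higher and 2 lower under the block (4.01% and 3.81% of all genes, median log2 0.03, against 0.00 over all genes). DESeq2 called 2 higher and 2 lower (2.05% and 2.27% of all genes). Nrl and Nr2e3 are among the 18 and, having chosen the cells, support nothing. Samd7 was at 365, 717 and 866 CPM in OIR and 240.1, 259 and 251 CPM in Ctrl, apart in all libraries. By edgeR it was called with the block (log2 1.14 ± 0.17, adjusted p = 0.00612) but not without (adjusted p = 0.0657). Esrrb, an orphan nuclear receptor of mature rods, was at 114, 105 and 96.9 CPM against 124, 128 and 124 CPM (adjusted p = 0.0388 with the block). The fourth was Rxrg, a retinoid receptor of cones, higher with the block at 1.33, 3.17 and 2.86 CPM in OIR rods and 0.42, 0.117 and 0.336 CPM in Ctrl rods. Nrl, the rod-fate factor, was at 2451, 2431 and 2264 CPM against 2222, 2457 and 2260.0 CPM.

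Structural and synaptic genes of rods gave few calls. Of 19 genes of disc structure and the retinoid cycle 16 had a negative log2 fold change (median log2 -0.21). By edgeR 0 were called higher or lower, and DESeq2 called 0 higher and 1 lower (2.05% and 2.27% of all genes). The block, which called 4.01% of all genes higher and 3.81% lower, called 2 lower, Nxnl1, which encodes rod-derived cone viability factor (328, 296 and 339 CPM against 383, 627 and 580.1 CPM), and Mfge8. The disc rim genes Prph2 and Rom1 had log2 fold changes of -0.36 ± 0.17 and -0.21 ± 0.16 and were called in neither edgeR fit. Of 21 genes of the rod synapse 16 were negative (median log2 -0.13). By edgeR 0 were called without the block, and with it 1 was higher, Cplx3, and 2 were lower, Cabp4 and Bsn, the first near the 4.01% of all genes. DESeq2 called 1 higher and 1 lower (2.05% and 2.27% of all genes). Cabp4, a calcium sensor of the ribbon synapse channel, was at 321, 232 and 271 CPM in OIR and 395, 427 and 401 CPM in Ctrl, below them in every library. Cplx2, a complexin of conventional synapses outside that list, was at 34.4, 101 and 112 CPM against 8.19, 11.5 and 11.7 CPM (log2 2.79 ± 0.40, adjusted p = 0.0208). Of 20 genes of the cilium and protein transport 0 were called, and 1 (Rpgr) was higher with the block, also near that share.

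Among oxygen and energy genes, Hk2 went opposite ways in rods and in rod bipolar barcodes. Hk2, the hexokinase of aerobic glycolysis in photoreceptors (chromosome 6, 82725025 to 82774454), was at 41.3, 14.2 and 15.2 CPM in OIR rods and 189, 117 and 127 CPM in Ctrl rods. No OIR library reached the lowest Ctrl library, and Hk2 fell by 2.78 ± 0.42 on the log2 scale (adjusted p = 0.0267, and 4.77e-05 with the block). In rod bipolar barcodes, those with Trpm1 and other bipolar genes and no cone or glial marker, the direction was opposite, with Hk2 at 99.6, 79.1 and 63 CPM in OIR and 23.1, 12.5 and 20.6 CPM in Ctrl. The difference between the 2 classes was -4.93 ± 0.28 on the log2 scale (edgeR with library as a block, adjusted p = 2.39e-05). In cones Hk2 was at 338, 362 and 343 CPM against 367, 544 and 499.6 CPM, and the rod effect was 2.39 ± 0.29 below the cone effect on the log2 scale (adjusted p = 2.19e-05).

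The promoter of Hk2 is shown because ACGTG, the core letters of the hypoxia response element, lie in it. It is printed for the minus strand of chr6:82774455-82774704 in GRCm38.p6, with ACGTG or its complement CACGT in capitals at 2 places.
Hk2: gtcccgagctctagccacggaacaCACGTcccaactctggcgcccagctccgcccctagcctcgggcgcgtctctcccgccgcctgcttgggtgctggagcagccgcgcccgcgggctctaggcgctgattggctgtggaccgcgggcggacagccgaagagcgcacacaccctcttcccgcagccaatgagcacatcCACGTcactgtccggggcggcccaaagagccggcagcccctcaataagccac
These letters were in 7 of 18 glycolysis promoters (38.9%) and 9 of 19 hypoxia target promoters (47.4%), against 4477 of 27025 in all (16.6%). Among genes called in rods they were in 8 of 69 promoters of higher genes and 6 of 49 of lower genes (11.6% and 12.2%), against 22.6% of all genes tested, and with the block in 69 of 359 and 73 of 348 (19.2% and 21.0%), against 22.5%.

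Glycolysis as a list had 16 of 19 genes with a negative log2 fold change in rods (median -0.37, against 0.00 over all genes). By edgeR 0 were called higher and 1, Hk2, lower (0.805% and 0.588% of all genes). The block called 3 lower, Hk2, Aldoc and Eno2, where 3.81% of all genes were. Gapdh was at 3996, 2823 and 3000.2 CPM in OIR and 3958, 3966 and 4061 CPM in Ctrl, and its groups overlapped by OIR replicate 1 alone. Of the hypoxia targets 17 of 23 passed the filter, with 0 called higher by edgeR and 1 lower (0.805% and 0.588% of all genes). The 1 was Hilpda of lipid droplets (38.8, 39.4 and 41.4 CPM against 50.4, 58.5 and 52.7 CPM, adjusted p = 0.0447). The block, which called 3.81% of all genes lower, added Ddit4, Ankrd37 and P4ha1 as lower, and DESeq2 called 1 higher, Ndrg1, and 3 lower (2.05% and 2.27% of all genes). Of the 17 genes 12 were negative (median log2 -0.24), yet the list summed to 1559, 1486 and 1459 CPM in OIR and 1422, 1316 and 1351 CPM in Ctrl, higher in every OIR library, with Ndrg1 giving the most. The sums overlapped with the rule as given (1768, 1538 and 1483 CPM against 1494.5, 1319 and 1361 CPM). Vegfa, the angiogenic factor, was at 26.5, 12.7 and 14.7 CPM in OIR rods and 19.1, 9.85 and 14 CPM in Ctrl rods, which overlapped.

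In rod bipolar barcodes, where edgeR called 79 genes higher and 59 lower in OIR (0.762% and 0.569%), 5 of 19 hypoxia targets and 2 of 19 glycolysis genes were higher and 0 lower. Set against those, the rod effect was lower for 5 of 20 hypoxia targets (Bnip3, Egln1, Ndrg1, Higd1a and Ero1l) and for 7 of 19 glycolysis genes (Hk2, Pfkp, Aldoc, Pgk1, Eno1, Ldha and Slc2a1) and higher for 0. Over all 13258 genes tested the rod effect was higher in 48 and lower in 34 (0.362% and 0.256%). Bnip3, of mitophagy, was at 38.5, 27.7 and 24.3 CPM in OIR rods and 26, 27.2 and 29.4 CPM in Ctrl rods, while in rod bipolar barcodes it was at 487, 472 and 458 CPM against 160.2, 214 and 242 CPM (difference in log2 fold change -1.21 ± 0.18, adjusted p = 0.0156). Ndrg1 was above Ctrl in each OIR library of both classes, at 389, 451 and 490.4 CPM against 302, 325 and 282 CPM in rods and 104, 141 and 117 CPM against 34.5, 25.5 and 27.5 CPM in rod bipolar barcodes, and its rod effect was smaller by 1.56 ± 0.18. With the rule as given this comparison of effects called 0 of 14064 genes in either direction by edgeR, with 681 at an unadjusted p under 0.05.

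**Figure D4:**
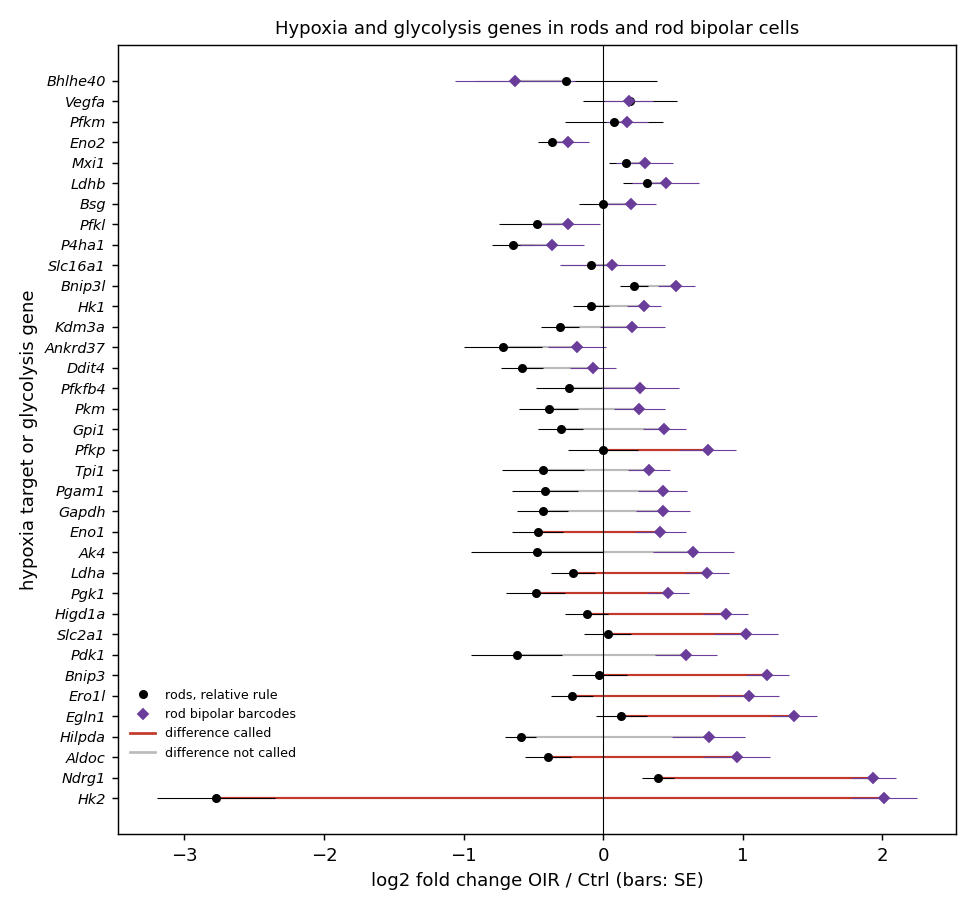
Log2 fold change of OIR over Ctrl with its SE for each hypoxia target and glycolysis gene tested in both classes, with rods as black circles and rod bipolar barcodes as purple diamonds, joined in red where the difference was called. Hk2 lies at -2.78 in rods and 2.01 in rod bipolar barcodes, and the 12 called differences all have rods to the left.

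Against cones, the sister photoreceptors, the relative rule called 70 genes with a higher and 42 with a lower OIR effect in rods among 12099 (0.579% and 0.347%), and the rule as given 2 and 4 among 13291 (0.015% and 0.0301%). In cones alone 52 genes were higher and 32 lower in OIR (0.583% and 0.359%). Cplx2 rose in rods but was at 28, 75.5 and 71 CPM in OIR cones and 28.9, 48.2 and 32.3 CPM in Ctrl cones, a rod effect higher by 2.24 ± 0.21 on the log2 scale (adjusted p = 2.73e-07). Gnb2 was at 191, 231 and 209 CPM against 172, 189 and 154 CPM in cones, and its rod effect was higher by 1.83 ± 0.18 (adjusted p = 4.83e-07). In OIR, then, Gnb2 in rods reached 238 to 321 CPM, a range above that of cones, from 49.1 to 84.4 CPM in Ctrl rods. Gzmm, a granzyme gene, was at 48.7, 83.6 and 75.1 CPM against 37.4, 16.8 and 15 CPM in rods and at 254, 191 and 185 CPM against 479, 317 and 386 CPM in cones (rod effect higher by 2.45 ± 0.24, adjusted p = 5.97e-07).

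On the lower side, Mef2c in cones was at 26, 35.3 and 44.7 CPM in OIR and 17.5, 21.7 and 15.2 CPM in Ctrl, so cones and rods went opposite ways (rod effect lower by 2.47, adjusted p = 2.73e-07). Faim and Ip6k2, an inositol hexakisphosphate kinase, had rod effects 1.44 ± 0.17 and 1.26 ± 0.15 below those of cones. Ip6k2 was at 179, 258 and 114 CPM in OIR rods and 583, 421 and 438 CPM in Ctrl rods. Of the phototransduction list, 1 gene differed from cones, Guca1a (rod effect lower by 1.42 ± 0.27, adjusted p = 0.00474), which cones hold at 4493 to 6216 CPM in all 6 libraries. These classes come from the same libraries, so the sample was kept as a block in every such fit. The relative rule was applied to rods alone, and no term let a sex effect differ between the classes.

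Mitochondrially encoded transcripts were lower in OIR within each replicate number, a pairing that no label gives, and the groups overlapped. They were 5.11%, 3.02% and 3.15% of rod UMIs in OIR and 6.95%, 3.84% and 4.22% in Ctrl with the rule as given, with OIR replicate 1 above Ctrl replicates 2 and 3 (two-sided exact permutation test, p = 0.5). All 13 of these genes had a negative log2 fold change with a median of -0.72 against 0.00 over all genes. By edgeR 2 were called lower and 0 higher (0.588% and 0.805% of all genes), and the block called 10 lower (3.81% of all genes). The complex I gene mt-Nd4l was at 134, 101 and 134 CPM in OIR and 257, 232 and 266 CPM in Ctrl (log2 -1.19 ± 0.15, adjusted p = 0.0121). The nuclear genes of oxidative phosphorylation gave 0 edgeR calls among 82 tested (median log2 0.07), with 2 higher and 2 lower under the block, shares below the 4.01% and 3.81% of all genes. DESeq2 called 3 higher and 1 lower (2.05% and 2.27% of all genes). Detected genes per rod, after each rod was thinned to 1000 UMIs, were 662.5, 681 and 667 in OIR and 644, 612 and 608 in Ctrl, apart in all libraries (670.2 ± 9.43 against 621 ± 19.8, SD, n = 3, exact permutation p = 0.1, the smallest possible). From 4.86% to 12.6% of rods of a library had under 1000 UMIs and were left out of that comparison, and without thinning the medians were 1602, 1266 and 1107 genes in OIR and 1319, 979.5 and 780.0 in Ctrl, which overlapped.

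Stress and death genes gave no edgeR call in rods without the block. DESeq2 called 2 of 14 cell death genes higher, where it called 2.05% of all genes higher. None of 17 photoreceptor stress genes, 15 immediate early genes, 13 genes of interferon and MHC class I, 22 chaperones or 14 genes of cell death and the inflammasome was called by edgeR with the relative rule in either direction. That fit called only 0.805% of all genes higher and 0.588% lower. Their log2 fold changes were mostly positive, with 14 of 17 stress genes positive (median 0.58), 10 of 13 of interferon and MHC class I (0.36), 11 of 15 immediate early genes (0.21) and 9 of 14 cell death genes (0.22), but 11 of 22 chaperones (-0.01), where the median over all genes was 0.00. Summed, the stress list was 1689, 1355 and 1202 CPM in OIR and 1598, 972 and 949 CPM in Ctrl. The immediate early list was 1973, 1997 and 1800 CPM against 2046, 875 and 1069 CPM. The interferon and MHC class I list was 188, 113 and 127 CPM against 148, 96.7 and 90.4 CPM. In each of these Ctrl replicate 1, the sole male Ctrl pool, lay within or above the OIR range. The cell death list did not overlap (351, 322 and 335 CPM against 302, 245 and 251 CPM). With the block, which called 4.01% of all genes higher and 3.81% lower, 4 of 19 stress genes, 3 of 15 immediate early genes (Jun, Jund and Dusp1), 4 of 14 cell death genes, 1 of 16 interferon and MHC genes and 1 of 23 chaperones were higher and 0 lower. Gsdme, a gasdermin, was at 23, 19.9 and 20.7 CPM in OIR and 13.2, 8.21 and 8.74 CPM in Ctrl, and Pycard, the inflammasome adaptor ASC, at 16.4, 9.31 and 8.05 CPM against 7.14, 2.58 and 2.02 CPM. Gsdme was apart in all libraries and Pycard was too, and both were given at lower CPM in rods than in the rest of the retina (0.184 and 0.382 times). Of other genes followed in the study, Dab2ip was at 12.4, 14.3 and 12.5 CPM in OIR and 14.1, 10.6 and 8.86 CPM in Ctrl (log2 0.09 ± 0.19), and Casp8, Gsdmd and Nlrp12 were at no more than 1.26 CPM in any library and did not pass the filter.

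Other lists of rod genes had 0 edgeR calls without the block. With it, where 4.01% of all genes were called higher and 3.81% lower, edgeR called Tef and Per3 of the clock list higher (2 of 15), Gpx1 of 19 antioxidant genes higher, H1f0, a linker histone, of 16 rod nucleus genes higher, and Elovl2 higher with Cpt1a and Vldlr lower of 17 genes of fatty acids and membrane lipids, and the 1 call in each of the antioxidant and rod nucleus lists is near that share. Summed, the rod nucleus list was 16539, 15631 and 16346 CPM in OIR and 12760, 13246 and 13498 CPM in Ctrl, with the histone gene H3f3b giving the most. The antioxidant list was 3668, 3448 and 3534 CPM against 3270, 3164 and 3020 CPM, with the glutathione peroxidase Gpx4 giving the most. In both lists every OIR library was above every Ctrl library, while their median log2 fold changes were -0.08 and 0.17. Ribosomal protein genes had a median log2 fold change of 0.10 with 68 of 80 above 0 and 0 called by edgeR in either fit. Summed, they were 70708, 68429.8 and 69053 CPM in OIR and 68817, 53899.6 and 51423 CPM in Ctrl.

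Markers of other cells were low in rods but uneven between libraries. The 11 cone markers summed to 802, 249 and 296 CPM in OIR and 713, 144 and 130.04 CPM in Ctrl, with Gnb3 giving the most UMIs and 1 of the 11, Arr3, at 0 by the rule, and the block, with 4.01% of all genes higher and 3.81% lower, called 2 of 9 tested higher. Müller glia markers summed to 406, 353 and 334 CPM against 534, 172 and 159.5 CPM, with Apoe giving the most and Slc1a3 and Rlbp1 at 0 by the rule. Microglia markers summed to 84.3, 79.6 and 81.7 CPM against 181, 15 and 25.9 CPM, with C1qb giving the most, and with the block all 7 tested had positive log2 fold changes, though edgeR called 0. Lens crystallins stood at 1399 CPM in OIR replicate 2 and at no more than 15.7 CPM elsewhere, and blood genes at 485 CPM in Ctrl replicate 1 and 10.1 to 80.5 CPM elsewhere, and with the block 7 of 8 lens genes were called higher and 4 of 4 blood genes lower. Rod bipolar markers, with Prkca giving the most and Trpm1 at 0 by the rule, summed to 287, 146 and 171 CPM against 361, 151 and 169.8 CPM, and vascular markers to at most 70.7 CPM. These sums move with the library and in part with the group, and their part in the gene calls was not tested. Leaving out every rod with any UMI of a wider set of other-cell genes, with the rule as given, gave 150 higher and 119 lower genes, and 142 of the 161 genes called with the relative rule were called again. That fit drew on the same libraries, so it is no independent support.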

How the data were processed

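Retinas of 3 OIR and 3 Ctrl samples were measured by droplet single-cell RNA-seq. The deposited files hold the authors' UMI counts, 31053 genes by barcode and not normalized; the matrix headers give software version 3.1.0 and the submitters' processing notes the build mm10. Depth was 15788524 to 42606878 UMIs per library.

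Counts were summed over the rods of each library. The sums were tested with edgeR 4.0.16 (R 4.3.3; filterByExpr, trimmed means scaling, quasi-likelihood test, Benjamini-Hochberg adjustment over all genes tested) and, as an alternative, DESeq2 1.42.0. Single values were compared by exact permutation tests, where 3 against 3 samples cannot go below 0.1. Cones and rod bipolar barcodes, taken at 3 or more marker UMIs, were set against rods with the sample as a block. No doublet caller was run. On simulated counts the test recovered 0.5% of 2-fold and 62% of 4-fold changes with the rule as given (12400 genes), and 60% and 84.5% with the relative rule (11559 genes). False calls were 0% and 5.34% of calls with the rule as given, and 6.98% and 5.59% with the relative rule. The simulated libraries had no differences shared by replicate number or sex, so these rates may not hold for the real libraries.

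The members and the gene lists were chosen with earlier results of these data known. The naming rule took, in each direction, the 12 called genes of lowest p with no overlap between groups, at least 20 CPM in the higher group and at least 0.5 times the CPM of other kept barcodes, then 5 below that ratio, and the called or most abundant members of each list. Sex-linked, haemoglobin and unnamed gene models were left out, and some genes are not reported here and were taken out of the lists and the naming. Since the rule as given called no gene, this was applied to the relative rule, a choice made with the data in view. Genes named for a call with the block, and those of hypoxia and glycolysis set against rod bipolar barcodes, were also chosen after their values were seen. Same-numbered samples had correlations of 0.771, 0.51 and 0.579 in their deviations from the group means (12400 genes), which set the pairing used for the block; across numbers, replicates 2 and 3 gave 0.459 (OIR replicate 2 with Ctrl replicate 3) and 0.52 (OIR replicate 3 with Ctrl replicate 2), so the values set replicate 1 apart and do not separate 2 from 3, and no label gives the source of the pairing. Alternatives changed the rod rule, mitochondrial and gene limits, thinning, count filter, block, sex and libraries. Gene positions are those of GENCODE on GRCm38; promoters are RefSeq's.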

Additional observations from a re-analysis of the deposited data

Results flagged for a closer look

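The genes below had OIR effects in rods that differed from those in another cell class by edgeR's test of the difference itself, with the sample as a block. Values are differences of log2 fold changes, rods minus the other class, and no explanation was tested.

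With the rule as given, the rod effect was higher than the cone effect for C1qc (4.54 ± 0.51, adjusted p = 0.0293) and D430019H16Rik (1.85 ± 0.26, adjusted p = 0.0374). It was lower for Mgp (-4.55 ± 0.63, adjusted p = 0.0374), Ndufa4l2 (-4.44 ± 0.57, adjusted p = 0.0355), Trpc1 (-1.55 ± 0.21, adjusted p = 0.0374) and Mef2c (-2.25 ± 0.27, adjusted p = 0.0293). C1qc, a microglial gene, was at 209, 59.1 and 45.04 CPM in OIR rods and 198, 21.2 and 31.3 CPM in Ctrl rods, which overlapped, and in cones at 0.824, 0 and 0 CPM against 15.0, 2.10 and 1.90 CPM, and the cone libraries of OIR were at or near 0. Mgp and Ndufa4l2 are known from vascular cells. Mgp stood at 362 CPM in rods of Ctrl replicate 1 and at 1.61 to 26.7 CPM in the other libraries, and with the relative rule neither Mgp nor Ndufa4l2 was called (adjusted p = 0.126 and 0.534).

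With the relative rule, the rod effect was above the cone effect for Gnb2 (1.83), Ldhb (0.72), Gzmm (2.45) and Cplx2 (2.24) and below it for Hk2 (-2.39), Faim (-1.44), Ip6k2 (-1.26) and Guca1a (-1.42). Ldhb, a lactate dehydrogenase subunit, was at 102, 86 and 73.7 CPM in OIR rods and 74.9, 56 and 60.2 CPM in Ctrl rods, against 105, 77.7 and 99.1 CPM and 121, 113 and 131 CPM in cones.

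Against rod bipolar barcodes, the rod effect was higher for Cplx2 (2.50), Cttnbp2 (1.67) and Dusp26 (1.39). It was lower for the glycolysis genes Hk2 (-4.93), Aldoc (-1.33), Slc2a1 (-0.99), Pgk1 (-0.97), Ldha (-0.95), Eno1 (-0.90) and Pfkp (-0.79), and for the hypoxia targets Ndrg1 (-1.56), Egln1 (-1.23), Ero1l (-1.22), Bnip3 (-1.21) and Higd1a (-0.99). Dusp26, one of the genes named as higher in OIR rods, was at 93.6, 98.2 and 80.0 CPM in OIR and 114, 78.1 and 62.5 CPM in Ctrl rod bipolar barcodes, and there its groups overlapped.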

How the results depend on the processing

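The number of genes called in rods depended on the setting more than their direction did. All settings drew on the same libraries, so a shared direction is no independent support. With the rule as given edgeR called 0 higher and 0 lower, and this held with no filter on low counts, no upper limit on genes, a sex term, at least 1 rod-gene UMI and a 10% limit on mitochondrial UMIs. It became 69 and 68 with DESeq2, 9 and 2 with the replicate block, 5 and 5 with at least 4 rod-gene UMIs, 28 and 26 after thinning to 1000 UMIs, 14 and 10 without the 10% of rods with the most UMIs, 150 and 119 without rods with a UMI of other cell types, and 1096 and 1146 with replicates 2 and 3 alone, where group and sex cannot be told apart. The relative rule gave 93 and 68, and with it the replicate block gave 482 and 458, a sex term 11 and 24, and DESeq2 239 and 264. Leaving out 1 library gave 0 to 118 higher and 0 to 155 lower with the rule as given, and 3 to 464 and 0 to 445 with the relative rule, by library 129 and 119 (without OIR replicate 1), 3 and 0, 9 and 7, 464 and 445 (without Ctrl replicate 1, where again group and sex cannot be told apart), 7 and 5, and 10 and 9. The cause was not tested. Of the 161 genes called with the relative rule, 149 kept their direction under the rule as given with a sex term, and Sv2a turned to a log2 fold change of -0.38. For single genes named, 520 values under alternatives kept direction and side of the threshold, and 375 kept direction and passed it where the rule as given did not, a count that the choice of the genes by their calls under the relative rule in part fixed.

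Against cones, 2 higher and 4 lower with the rule as given became 7 and 15 with no filter on low counts and 70 and 42 with the relative rule. With the rule as given, leaving out Ctrl replicate 1 gave 158 and 117, and there group and sex cannot be told apart. Leaving out any other library gave 0 to 2 higher and 0 to 4 lower. Against rod bipolar barcodes, 0 and 0 with the rule as given became 0 and 1 with no filter and 48 and 34 with the relative rule. With the rule as given, leaving out Ctrl replicate 1 gave 83 and 42, and any other library 0 higher and 0 to 1 lower. Both comparisons with the relative rule were not refitted without 1 library, and that rule was applied to rods alone. The difference in rod share, -3.85 percentage points, ran from -18.7 to 5.38 without 1 library, and was 5.38 without OIR replicate 1, 1.77 without Ctrl replicate 2 and 5.38 without Ctrl replicate 3. Without 1 library the OIR minus Ctrl difference ran from 42.5 to 60.6 for genes per rod at 1000 UMIs, from 113.5 to 804 for median UMIs and from -1.92 to -0.27 points for mitochondrial UMIs. On simulated counts 0.5% of 2-fold changes were recovered with the rule as given and 60% with the relative rule. Smaller changes, and differences shared by replicate number or sex, were not simulated.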
